A study of Mus musculus with 27 samples.

Results

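Epicardial genes were followed in 10 members, named as Wt1, Tcf21, Tbx18, Bnc1, Upk3b, Upk1b, Msln, Sema3d, Aldh1a2 and Lrrn4. They were taken by gene symbol from the array annotation and not by a rule on their measured values, but with earlier results of these data known. They are 10 of the 19935 genes measured. Each of the 10 had 1 probe set with a single symbol. Hearts of E11.5 mouse embryos gave the total RNA for 27 arrays in 6 genotype groups, all of a mixed C57Bl/6/BLKSW strain background. The groups lacked 1 copy of both Tbx5 and Brg1 (labelled Tbx5+/- Brg1 +/-, n = 3), of Tbx5 (Tbx5+/-, n = 5), of both Nkx2-5 and Brg1 (Nkx2-5+/- Brg1+/-, n = 3), of Nkx2-5 (Nkx2-5+/-, n = 4) or of Brg1 (Brg1+/-, n = 6), or were wild type (n = 6). The labels do not say how the deletions were made, how many hearts went onto an array or which embryos were littermates, so the p-values measure the spread between arrays. The design asks what the loss of 1 copy of each gene does in the heart and whether a lower dose of Brg1 alters the effect of either transcription factor.

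The epicardium is the outer cell layer of the heart. It arises from the proepicardium, spreads over the myocardium before this stage, and sends out growth signals and cells that become fibroblasts and vascular smooth muscle. Wt1, Tcf21, Tbx18 and Bnc1 encode transcription factors of this layer, Aldh1a2 the enzyme that makes retinoic acid there, and Sema3d a secreted guidance protein. Upk3b and Upk1b encode uroplakins, Msln encodes the surface protein mesothelin and Lrrn4 a leucine-rich repeat membrane protein, and these are shared with the mesothelium that lines other organs. Tbx18 is also known from the sinus venosus and Tcf21 from pharyngeal muscle. The gene for Brg1, the motor subunit of BAF chromatin remodelling complexes, is named Smarca4 on the array.

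Values are log2 signals made by the authors with RMA, on which 1 unit is a doubling, and array medians lay between 6.18 and 6.33. The levels of different probe sets cannot be ranked against each other. The mean over 27 arrays was above 8 for 9 members, and Msln, at 6.48, lay near the array medians. By their Smarca4 level, 2 arrays did not match their label. In Nkx2-5+/- replicate 3 Smarca4 stood at 9.57, where the 11 other arrays labelled as Brg1-deleted ran from 9.16 to 9.64, and its Nkx2-5 signal was 9.40 against 8.48 to 8.63 in the other 3 Nkx2-5+/- arrays. In Tbx5+/- Brg1 +/- replicate 3 it stood at 10.01, where the 14 other arrays labelled as having both copies ran from 9.89 to 10.23. The Tbx5 probe set did not separate the groups with a Tbx5 deletion. Its signal was 8.50 to 8.70 in the Tbx5+/- Brg1 +/- arrays and 8.51 to 8.90 in the Tbx5+/- arrays, against 8.40 to 8.96 in wild type. Where the probes lie relative to the deleted stretch is not given in the sources used here, so this probe set does not check those labels. Group names below are those of the labels. The main counts of epicardial genes are also given without both arrays, as are those of other gene lists with calls in the Nkx2-5 comparisons.

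**Figure D1:**
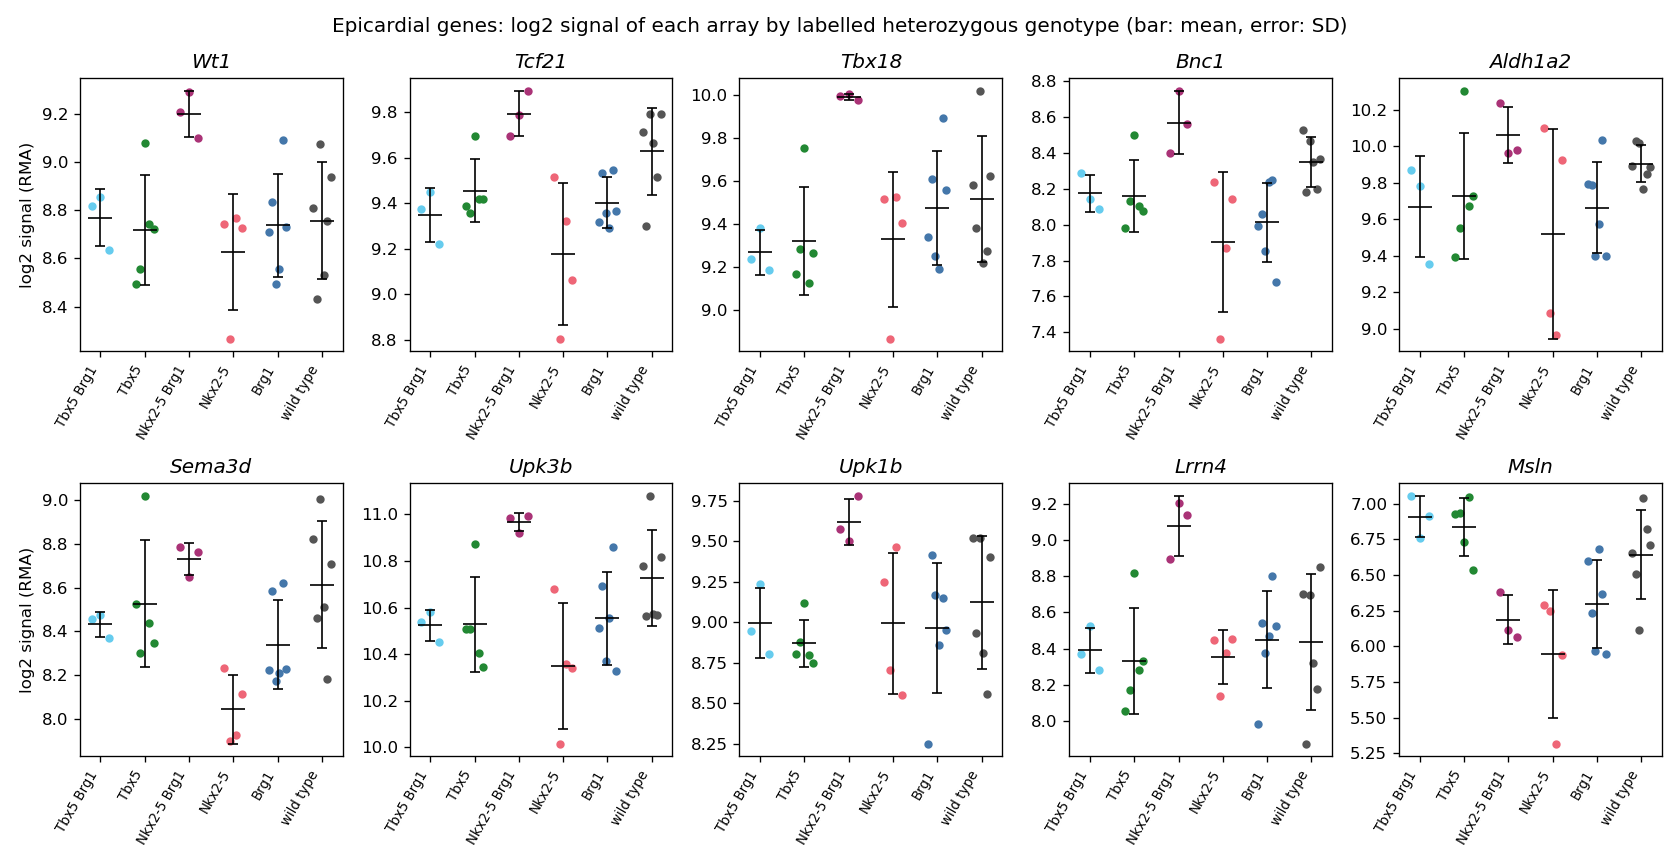
Log2 signal (y axis) of each of the 10 epicardial genes on each array, by genotype as labelled (x axis, each name standing for loss of 1 copy, with wild type at the right). Points are arrays, the bar is the group mean and the error bar the SD. The 3 Nkx2-5+/- Brg1+/- arrays (purple) have the highest group mean in 9 panels, and Msln is the exception.

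Across the 6 genotypes most epicardial genes shared the highest and the lowest group, while the order of the groups between them varied. For 9 of the 10 members the Nkx2-5+/- Brg1+/- hearts had the highest group mean, and for 7 of the 10 the Nkx2-5+/- hearts had the lowest. Without both arrays that go against their labels these counts were 9 and 8. The share of all genes with this pattern was not counted. The pattern was not confined to the members. The means of the other epicardial, epicardium-derived, signalling and endothelium lists given below were also highest in Nkx2-5+/- Brg1+/- and lowest in Nkx2-5+/- hearts, and those of the remaining lists were not. The mean over the 10 members was 9.22 ± 0.0052 in Nkx2-5+/- Brg1+/- hearts (SD, n = 3) and 8.62 ± 0.23 in Nkx2-5+/- hearts (SD, n = 4). It was 8.85 ± 0.10 in Tbx5+/- Brg1 +/- hearts (SD, n = 3), 8.85 ± 0.19 in Tbx5+/- hearts (SD, n = 5) and 8.79 ± 0.17 in Brg1+/- hearts (SD, n = 6), against 8.97 ± 0.18 in wild-type hearts (SD, n = 6). Between neighbours in the order of group means the ranges of the arrays overlapped for every member, with Wt1 and Lrrn4 as the exceptions. For these the Nkx2-5+/- Brg1+/- arrays lay wholly above the next group, a separation whose share over all genes was not counted.

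Hearts labelled Nkx2-5+/- had lower levels of 4 epicardial genes than wild-type hearts, the transcription factor genes Tcf21 and Bnc1, the guidance gene Sema3d and the mesothelin gene Msln. In this comparison 5.16% of all genes were called lower and 2.72% higher, and none of the 10 members was called higher. All 10 members had a log2 fold change below 0, where 47.6% of all genes had one above 0, with a median of -0.38 against -0.01 over all genes. In whole hearts, fewer epicardial cells and less RNA per cell cannot be told apart.

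Sema3d, a secreted semaphorin, had signals of 8.23, 7.90, 7.93 and 8.11 in the Nkx2-5+/- arrays, against a lowest value of 8.18, a median of 8.61 and a highest value of 9.004 in the wild-type arrays. The groups touched at 1 Nkx2-5+/- array, replicate 1, which lay just above the lowest wild-type array. Sema3d fell by 0.57 on the log2 scale (SE 0.14, limma adjusted p = 0.0158), which is 1.49-fold lower. Tcf21, a basic helix-loop-helix factor of epicardial and fibroblast precursors, was at 9.52, 8.80, 9.32 and 9.06 in the Nkx2-5+/- arrays, against 9.30, 9.69 and 9.80 as the lowest, median and highest wild-type values. A pair of Nkx2-5+/- arrays, replicates 2 and 4, lay below all wild-type arrays. Tcf21 fell by 0.45 (SE 0.12, limma adjusted p = 0.0189).

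Bnc1, a zinc finger protein of mesothelial and epithelial layers, gave 8.24, 7.36, 7.87 and 8.14 in the Nkx2-5+/- arrays, against 8.18, 8.36 and 8.53 as the lowest, median and highest in wild type. Replicate 1 again overlapped the wild-type range and replicate 2 was the lowest of all 27 arrays. Bnc1 fell by 0.45 (SE 0.14, limma adjusted p = 0.0444), but without replicate 2 the value was -0.27 (limma adjusted p = 0.327), and it missed the threshold under 14 of 23 alternatives. Msln stood at 6.29, 6.25, 5.32 and 5.94 in the Nkx2-5+/- arrays, against 6.12, 6.68 and 7.04 as the lowest, median and highest in wild type. It fell by 0.70 (SE 0.18, limma adjusted p = 0.0182), which is 1.62-fold lower, with replicates 1 and 2 inside the wild-type range, and its lowest array was replicate 3, whose Smarca4 and Nkx2-5 signals go against the label.

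The other 6 members did not pass in Nkx2-5+/- hearts. Upk3b had a log2 fold change of -0.38 (limma adjusted p = 0.0569), Aldh1a2 of -0.39 (limma adjusted p = 0.214) and Tbx18 of -0.19 (limma adjusted p = 0.531). Wt1, the zinc finger factor most used to mark the layer, had -0.13 (limma adjusted p = 0.632), Upk1b -0.13 (limma adjusted p = 0.778) and Lrrn4 -0.08 (limma adjusted p = 0.836). Aldh1a2 was the most uneven member in this group, with 10.10, 9.09, 8.97 and 9.92 in the Nkx2-5+/- arrays against 9.76 to 10.03 in wild type. Replicates 2 and 3 were thus below all wild-type arrays, replicate 4 was within their range and replicate 1 above it.

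The count of 4 rested on single arrays. It was 0 without Nkx2-5+/- replicate 2 or 4, 2 without wild-type replicate 4, 5 without both arrays that go against their labels, where 15.2% of all genes were called lower, and 0 when the fit held these groups only. Replicate 2 had the lowest signal of all 27 arrays for 6 of the 10 members. The mean of 8 erythroid genes was 11.11, 11.21, 9.11 and 10.97 in the Nkx2-5+/- arrays, against 8.42 to 10.25 in wild type, and the mean of 10 myocardium genes, Nkx2-5 among them, was 10.98, 10.84, 11.94 and 10.83 in the Nkx2-5+/- arrays against 11.45 to 11.95 in wild type. Of the 10 myocardium genes 8 were called lower (80% against 5.16% of all genes), at a median log2 fold change of -0.55. Without both arrays that go against their labels 8 were also called lower (15.2% of all genes). Of the 8 erythroid genes 3 were called higher (37.5% against 2.72% of all genes), and 8 without both arrays (6.56% of all genes). With the erythroid mean or the myocardium mean as a covariate 0 members were called, at a median log2 fold change of -0.38 and -0.41, and of all genes 3 and 0 were called.

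**Figure D2:**
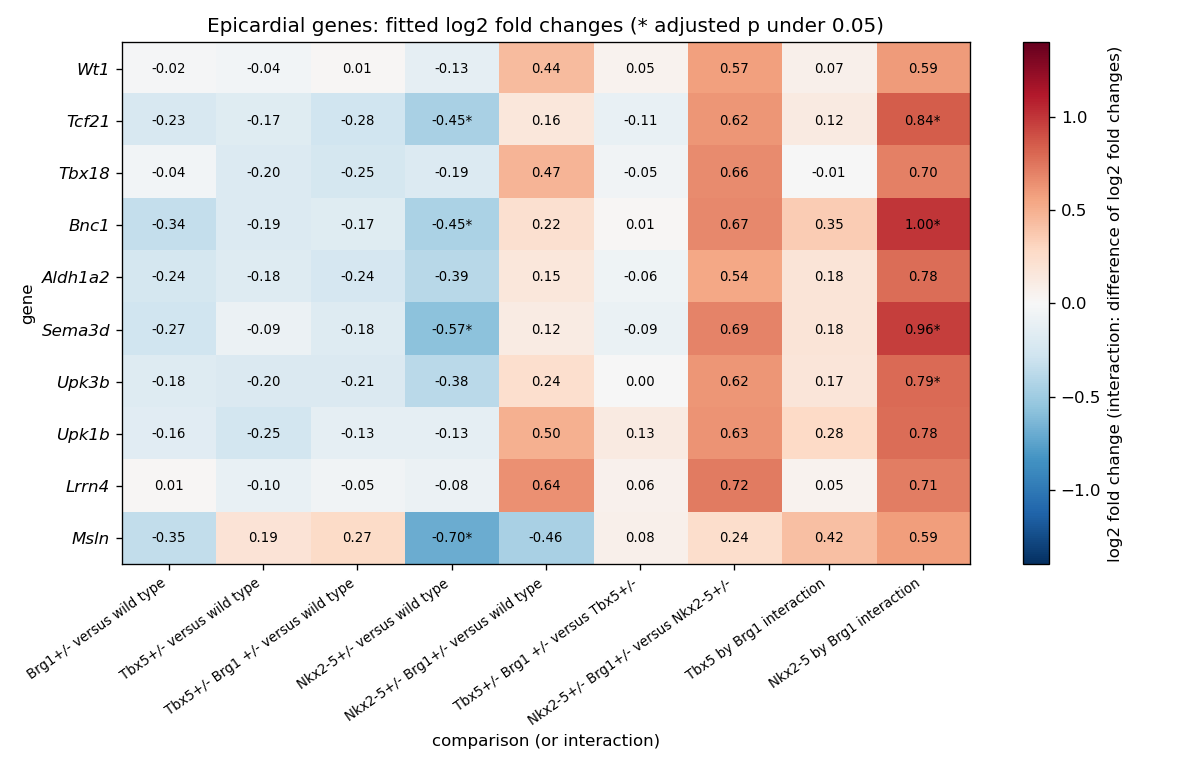
Fitted log2 fold changes of the 10 epicardial genes (rows) in 9 comparisons (columns), in colour and as numbers, with a star where the adjusted p is under 0.05. The stars are confined to Nkx2-5+/- hearts against wild type, with 4 genes lower, and to the Nkx2-5 by Brg1 interaction, with 4 genes higher.

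Arrays labelled Nkx2-5+/- Brg1+/- had a higher mean than those labelled Nkx2-5+/- for each epicardial gene, though no gene passed the test. All 10 members had a log2 fold change above 0 between them, as 53.4% of all genes did, with a median of 0.62 against 0.02 over all genes, but 0 passed the test across all genes by limma. At an unadjusted p under 0.05, 9 of the 10 were higher, where 7.51% of all genes were. For 8 members every Nkx2-5+/- Brg1+/- array lay above every Nkx2-5+/- array, a separation in this direction that 4.13% of all genes showed. Without both arrays that go against their labels, 8 members were higher at an unadjusted p under 0.05 (14.7% of all genes) and 8 did not overlap (15.8% of all genes). Only 0.0351% of all genes were called higher in this comparison and 0.00502% lower. Other cell types moved beside the members, with a median log2 fold change of -1.57 for 8 erythroid genes (8 of 8 below 0), 0.43 for 10 myocardium genes (10 of 10 above 0) and 0.29 for 8 endothelium genes (8 of 8 above 0). With the erythroid mean as a covariate the member median was 0.60.

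Tbx18, a T-box factor, was at 9.996, 10.002 and 9.974 in the Nkx2-5+/- Brg1+/- arrays, against 9.52, 8.87, 9.52 and 9.40 in the Nkx2-5+/- arrays. The groups did not overlap, and the log2 fold change was 0.66 (SE 0.18, limma adjusted p = 0.0816). Lrrn4 had 8.89, 9.20 and 9.14 in the Nkx2-5+/- Brg1+/- arrays, against 8.45, 8.14, 8.37 and 8.46 in the Nkx2-5+/- arrays, and a log2 fold change of 0.72 (SE 0.19, limma adjusted p = 0.0796). Wt1 was at 9.21, 9.29 and 9.10 in the Nkx2-5+/- Brg1+/- arrays, against 8.74, 8.27, 8.77 and 8.73 in the Nkx2-5+/- arrays, with a log2 fold change of 0.57 (SE 0.16, limma adjusted p = 0.0816). These 3 members, which stood near the wild-type level in Nkx2-5+/- hearts, were thus also higher on each Nkx2-5+/- Brg1+/- array, though short of the threshold.

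Among the members called lower in Nkx2-5+/- hearts, Sema3d had 8.79, 8.65 and 8.76 in the Nkx2-5+/- Brg1+/- arrays and a log2 fold change over Nkx2-5+/- of 0.69 (SE 0.16, limma adjusted p = 0.0565). Tcf21 was at 9.70, 9.79 and 9.90, with 0.62 (SE 0.14, limma adjusted p = 0.0565). Bnc1 was at 8.40, 8.75 and 8.56, with 0.67 (SE 0.16, limma adjusted p = 0.0608). Each of these lay above all 4 Nkx2-5+/- arrays. Msln, at 6.38, 6.12 and 6.07, overlapped them, with 0.24 (SE 0.21, limma adjusted p = 0.648).

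The uroplakin genes and Aldh1a2 pointed the same way. Upk3b was at 10.99, 10.92 and 10.99 in the Nkx2-5+/- Brg1+/- arrays, against 10.68, 10.02, 10.36 and 10.34 in the Nkx2-5+/- arrays, with a log2 fold change of 0.62 (SE 0.15, limma adjusted p = 0.0565). Upk1b was at 9.57, 9.50 and 9.78 in the Nkx2-5+/- Brg1+/- arrays, against 9.25, 8.71, 9.47 and 8.55 in the Nkx2-5+/- arrays, with 0.63 (SE 0.24, limma adjusted p = 0.173). Aldh1a2, at 10.24, 9.96 and 9.98, overlapped the Nkx2-5+/- range and had 0.54 (SE 0.22, limma adjusted p = 0.211). The count of members past the threshold was 8 without both arrays that go against their labels and 8 without Nkx2-5+/- replicate 3 alone, where 2363 and 2308 of all genes passed, 3 without Nkx2-5+/- replicate 1, and 0 with either of the other 2 Nkx2-5+/- arrays or any of the Nkx2-5+/- Brg1+/- arrays left out.

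Against wild type, the Nkx2-5+/- Brg1+/- arrays had 9 of the 10 members above 0 (45.9% of all genes), with a median log2 fold change of 0.23 against -0.02 over all genes, and 0 passed by limma. In this comparison 0.01% of all genes were called higher and 0.0251% lower. At an unadjusted p under 0.05, 4 members were higher (3.20% of all genes) and Msln was lower (4.19% of all genes). Lrrn4 had the largest value, 0.64 (SE 0.18, limma adjusted p = 0.395), and all 3 arrays lay above the 7.88 to 8.85 of wild type, a separation that 1.42% of all genes showed. Wt1 stood at 0.44 (SE 0.15, limma adjusted p = 0.521), with all 3 arrays above the 8.43 to 9.07 of wild type. Upk1b and Tbx18 stood at 0.50 and 0.47 and overlapped wild type, and Msln stood at -0.46 (limma adjusted p = 0.642). The Tcf21, Bnc1, Upk3b, Sema3d and Aldh1a2 values lay between 0.12 and 0.24. With array weights 3 members passed, all higher, and so did 5.80% of all genes in either direction, against 7 genes without weights.

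The Nkx2-5 by Brg1 interaction is the effect of Brg1 loss in Nkx2-5+/- hearts minus its effect in hearts with both copies of Nkx2-5, so a value above 0 means that the double loss lies above the sum of the single losses. All 10 members had a value above 0, where 54.5% of all genes did, and the median was 0.78 against 0.03 over all genes. The shift was not confined to epicardial genes. The medians were 0.89 for liver (9 of 9 above 0) and 0.61 for myocardium genes (10 of 10). They were 0.59 for sinus venosus (5 of 5) and 0.44 for endothelium genes (8 of 8). Foregut genes had 0.01 (5 of 8), pharyngeal muscle genes -0.12 (2 of 5) and erythroid genes -2.64 (0 of 8). For 4 members the interaction passed the test, all positive, where 2.23% of all genes were called in this direction and 2.72% in the other. These values use the same Nkx2-5+/-, Nkx2-5+/- Brg1+/- and wild-type arrays as the comparisons above and are not independent of them.

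For Bnc1 the effect of Brg1 loss was 0.67 in Nkx2-5+/- hearts and -0.34 without Nkx2-5 loss, and the interaction was 1.0045 (SE 0.21, limma adjusted p = 0.0166). For Sema3d the effects were 0.69 and -0.27, and the interaction 0.96 (SE 0.21, limma adjusted p = 0.0189). Tcf21 had 0.62 and -0.23, with an interaction of 0.84 (SE 0.17, limma adjusted p = 0.0166), and Upk3b had 0.62 and -0.18, with 0.79 (SE 0.19, limma adjusted p = 0.0209). In each of these 4 genes the means of both single losses lay below wild type and the mean of the double loss did not. The 6 members that did not pass had interactions of 0.78 for Upk1b and for Aldh1a2, 0.71 for Lrrn4, 0.70 for Tbx18, 0.59 for Wt1 and 0.59 for Msln (limma adjusted p = 0.0683 to 0.197).

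The interaction count of 4 became 0 without Nkx2-5+/- replicate 2 or Nkx2-5+/- Brg1+/- replicate 1 or 2, and 7 without Nkx2-5+/- replicate 3, without Brg1+/- replicate 5 or without both arrays that go against their labels, the last where 10.8% of all genes were called above 0. It was 0 with the erythroid mean or the myocardium mean as a covariate, 0 when the fit held these groups only, and 9 with array weights, where 21.2% of all genes were called. Under the erythroid covariate 0 of all genes were called. Of the 10 myocardium genes 1 was called above 0 in the interaction (10% against 2.23% of all genes). Without both arrays that go against their labels 8 were (80% against 10.8% of all genes). The erythroid mean was 8.18 to 10.05 in the Nkx2-5+/- Brg1+/- arrays and 9.08 to 11.08 in the Brg1+/- arrays, and all 8 erythroid genes were called below 0 in the interaction, with and without both arrays. The group means of the erythroid list were 10.60 in Nkx2-5+/-, 10.23 in Brg1+/-, 9.20 in wild-type and 9.08 in Nkx2-5+/- Brg1+/- hearts. The covariate therefore cannot separate the erythroid share from genotype, and the part of that share in the result was not tested. Under the covariate the median interaction of the members was 0.74.

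Promoter sequence was looked up for the members. RefSeq promoters of build GRCm38.p6 were found for 7 of the 10, and the 250 bases before the annotated start are printed, 5′ to 3′, for the 4 genes whose interaction passed. These were picked by the threshold alone, and all 10 members had an interaction above 0. Capitals mark matches, on either strand, to 1 of 5 motifs, namely AGGTGTNA for T-box factors, TNAAGTG for NKX2 factors, GNGTGGGNG for WT1/EGR factors, AGATAA for factors of the GATA family and GGAATG for TEAD factors. None of the matches shown overlap.
Tcf21, chr10:22820144-22820393, minus strand: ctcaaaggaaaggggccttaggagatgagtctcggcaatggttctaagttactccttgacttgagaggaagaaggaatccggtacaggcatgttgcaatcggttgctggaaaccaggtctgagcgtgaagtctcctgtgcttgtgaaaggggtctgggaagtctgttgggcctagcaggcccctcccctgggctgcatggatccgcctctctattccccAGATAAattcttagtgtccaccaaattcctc
Bnc1, chr7:81992300-81992549, minus strand: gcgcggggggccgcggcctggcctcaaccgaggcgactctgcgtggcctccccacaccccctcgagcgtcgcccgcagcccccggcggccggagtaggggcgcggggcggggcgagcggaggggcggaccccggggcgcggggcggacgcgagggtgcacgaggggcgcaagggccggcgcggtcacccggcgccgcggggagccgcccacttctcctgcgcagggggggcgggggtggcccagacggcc
Sema3d, chr5:12382916-12383165, plus strand: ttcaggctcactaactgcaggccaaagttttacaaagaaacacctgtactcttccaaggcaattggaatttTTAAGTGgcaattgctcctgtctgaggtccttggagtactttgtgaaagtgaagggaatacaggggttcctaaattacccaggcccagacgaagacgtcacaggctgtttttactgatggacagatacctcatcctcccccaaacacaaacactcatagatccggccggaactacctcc
Upk3b, chr5:136038246-136038495, plus strand: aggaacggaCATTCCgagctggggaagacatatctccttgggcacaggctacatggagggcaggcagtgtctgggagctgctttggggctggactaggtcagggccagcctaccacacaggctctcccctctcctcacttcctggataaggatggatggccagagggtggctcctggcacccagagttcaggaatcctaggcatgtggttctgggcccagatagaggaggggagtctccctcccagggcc

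No motif was common to the 4 windows. Sema3d held the NKX2 motif, 172 bases before the start, as did 10.1% of 32851 windows of this length. Tcf21 held the GATA motif 25 bases before the start (9.99% of windows) and Upk3b the TEAD motif 235 bases before the start (12.6% of windows). Bnc1, a window rich in G and C, held none of the 5 motifs. Of the other members with a promoter, Aldh1a2 held the T-box motif (2.68% of windows) and Lrrn4 the WT1/EGR motif (12.7% of windows) and the TEAD motif. These matches describe the letters only.

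Hearts labelled Brg1+/- had 0 epicardial genes past the test against wild type by limma, where 0% of all genes were called higher and 0.01% lower. At an unadjusted p under 0.05, 4 members were lower, where 5.89% of all genes were. These were Bnc1 at -0.34 (SE 0.12, limma adjusted p = 0.427), Msln at -0.35 (SE 0.16, limma adjusted p = 0.487), Sema3d at -0.27 and Tcf21 at -0.23 (limma adjusted p = 0.483 for each), the same 4 genes that fell in Nkx2-5+/- hearts, a comparison that shares the wild-type arrays. Bnc1 had 7.68, 8.03 and 8.25 as its lowest, median and highest values in the Brg1+/- arrays, against 8.18, 8.36 and 8.53 in wild type. Those ranges overlapped. The member median was -0.20, against -0.02 over all genes, and the erythroid median was 1.04 beside it.

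Loss of 1 copy of Tbx5 left the epicardial genes without a call. In Tbx5+/- hearts the member log2 fold changes against wild type lay between -0.25 and 0.19, with a median of -0.18 and 0 members at an unadjusted p under 0.05 (3.95% of all genes). In Tbx5+/- Brg1 +/- hearts they lay between -0.28 and 0.27, with a median of -0.18 and 1 member, Tcf21, at an unadjusted p under 0.05 (4.38% of all genes). Limma called 0% of all genes in both. Between Tbx5+/- Brg1 +/- and Tbx5+/- hearts the values lay between -0.11 and 0.13, again with 0 members at an unadjusted p under 0.05 (2.48% of all genes) and 0% of all genes called. The Tbx5 by Brg1 interaction had a member median of 0.18, against 0.78 for the Nkx2-5 by Brg1 interaction, and 0 members at an unadjusted p under 0.05 (3.04% of all genes), with 0% of all genes called. That gap between the interactions was not tested.

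Msln parted from the other members here. Its highest group means were in hearts with a Tbx5 deletion, at 7.05, 6.76 and 6.92 in the Tbx5+/- Brg1 +/- arrays and 6.93, 6.93, 6.73, 7.05 and 6.54 in the Tbx5+/- arrays, against 6.12 to 7.04 in wild type. In arrays labelled with an Nkx2-5 deletion the signal ran from 5.32 to 6.38. Among single arrays, Tbx5+/- replicate 3 stood above the rest of its group for 9 members, with 9.08 for Wt1 against 8.49 to 8.74 in the others, while its Msln of 6.73 was inside the group's range.

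**Figure D3:**
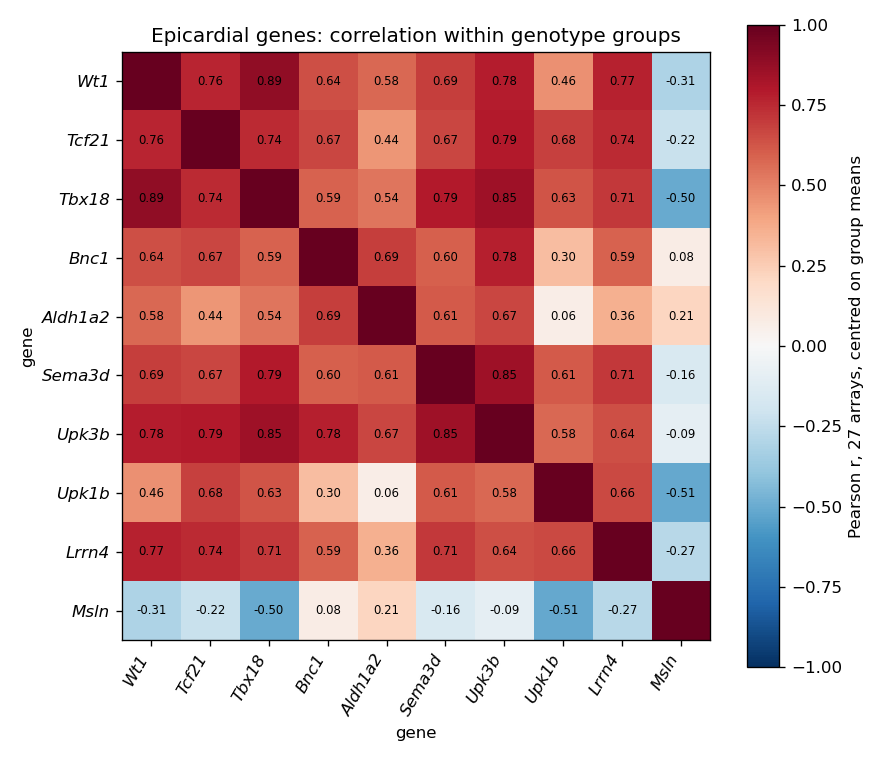
Pearson correlation between the 10 epicardial genes over 27 arrays after each gene was centred on its 6 group means. The Msln row and column stand apart, with 7 of 9 values below 0, while the 36 pairs without Msln are all above 0.

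Within genotypes the epicardial genes varied together. After centring on group means, all 36 pairs without Msln had a positive Pearson correlation over 27 arrays, from 0.06 to 0.89 with a median of 0.67. The closest pair was Wt1 and Tbx18 at 0.89, followed by Tbx18 with Upk3b and Upk3b with Sema3d at 0.85 each. Upk1b and Aldh1a2 were the least alike at 0.06. Msln had 7 of its 9 correlations below 0, the lowest with Upk1b at -0.51. All points share arrays and normalization, so these values are descriptions.

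The genes outside the list most like the member mean over the 27 arrays were Svep1 (r = 0.83), Dcn (0.80), Clca3a1 (0.79), Fmod, Axl, Plxnb2 and Plekhh2 (0.78 each), and Col5a2, Nrk and Syne2 (0.77 each), all centred on group means. Spearman's rho for Svep1 was 0.81, and r was 0.79 without the 2 arrays farthest from the median member mean. Svep1 encodes an extracellular matrix and adhesion protein, Dcn and Fmod encode small leucine-rich proteoglycans, Col5a2 a fibrillar collagen chain, Axl a receptor tyrosine kinase and Plxnb2 a semaphorin receptor. On uncentred values 6 of the 10 were still among the 10 most alike and all 10 among the 100 most alike. Of these 10 genes Fmod alone was called in Nkx2-5+/- Brg1+/- over Nkx2-5+/- hearts, at a log2 fold change of 0.94 (limma adjusted p = 0.0201). The others did not pass, from Axl (limma adjusted p = 0.0565) to Col5a2 (limma adjusted p = 0.456).

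Other epicardial and mesothelial genes, in a list of 12, had 3 members lower and 0 higher in Nkx2-5+/- hearts than in wild type (25% against 5.16% of all genes lower), at a median log2 fold change of -0.21. The keratin gene Krt19 fell by 0.56 (limma adjusted p = 0.0255), Gpm6a, a neuronal and mesothelial membrane glycoprotein, by 0.57 (limma adjusted p = 0.0352) and Nkain4 by 0.48 (limma adjusted p = 0.0277). In the Nkx2-5 by Brg1 interaction 3 of the 12 were called, all above 0 (25% against 2.23% of all genes), with Nkain4 at 0.85 (limma adjusted p = 0.0209), the heparan sulfate editing enzyme gene Sulf1 at 1.02 (limma adjusted p = 0.0246) and Gpm6a at 0.93 (limma adjusted p = 0.0295). The mean of this list followed the member mean within groups, with r = 0.72 over 27 arrays.

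Of 17 listed retinoic acid genes, 16 were named on the array. In Nkx2-5+/- hearts 12 of these were below 0, of which 2 fell and 0 rose (12.5% against 5.16% of all genes lower), namely the retinoic acid receptor genes Rarb, by 0.45 (limma adjusted p = 0.0249), and Rara, by 0.32 (limma adjusted p = 0.0441). In the interaction 15 of the 16 were above 0 and Rarb alone was called (6.25% against 2.23% of all genes), at 0.69 (limma adjusted p = 0.0273). The list mean had r = 0.14 with the member mean over 27 arrays. Among 13 genes of epicardium-derived cells and of the epithelial to mesenchymal transition, 1 fell in Nkx2-5+/- hearts, the intermediate filament gene Vim by 0.42 (limma adjusted p = 0.0192), and 0 were called in the interaction. That share, 7.69%, is near the 5.16% of all genes called lower. Of 15 genes that carry signals between epicardium and myocardium, the growth factor gene Igf2 fell by 0.33 (limma adjusted p = 0.0362), a share of 6.67% that is also near 5.16%, and Igf2 and the thymosin gene Tmsb4x were called in the interaction at 0.50 (limma adjusted p = 0.0440) and 0.71 (limma adjusted p = 0.0429). Without both arrays that go against their labels, the counts lower in Nkx2-5+/- hearts were 5 of 12 other epicardial, 2 of 16 retinoic acid, 4 of 13 epicardium-derived and 4 of 15 signalling genes, where 15.2% of all genes were lower, and the counts above 0 in the interaction were 6, 2, 4 and 5 in the same lists, where 10.8% of all genes were. Without Nkx2-5+/- replicate 2, or with the erythroid covariate, 0 genes of these 4 lists were called in either comparison.

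**Figure D4:**
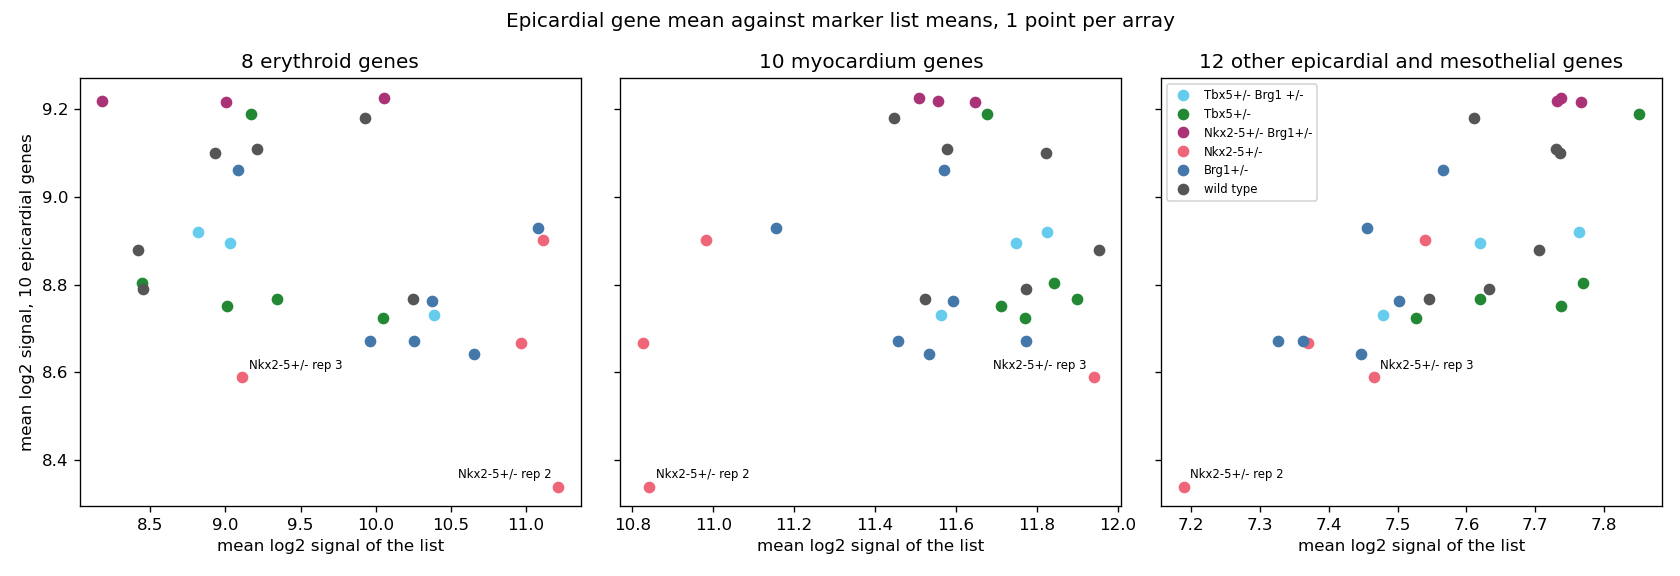
Mean log2 signal of the 10 epicardial genes (y axis) against the mean log2 signal of 8 erythroid, 10 myocardium and 12 other epicardial and mesothelial genes (x axes), 1 point per array, coloured by genotype as labelled. The Nkx2-5+/- Brg1+/- arrays lie at the top of each panel, between 9.22 and 9.23, and Nkx2-5+/- replicate 2 lies lowest at 8.34.

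Markers of other tissues that carry epicardial or mesothelial genes gave these values. The mean of 9 liver genes was 5.99 to 7.15 in the Nkx2-5+/- Brg1+/- arrays and 5.46 to 6.14 in the Nkx2-5+/- arrays, against 5.64 to 8.31 in wild type, and its r with the member mean within groups was 0.03. The 8 foregut and lung epithelium genes and the 5 pharyngeal muscle genes had means of 5.20 to 5.91 and 5.08 to 6.01 over all arrays, below the array medians. Of the foregut genes 1, the signalling gene Shh, rose in Nkx2-5+/- hearts, by 0.38 (limma adjusted p = 0.0220), and 6 of 8 were above 0. That share called higher is 12.5%, against 2.72% of all genes. Without both arrays that go against their labels 3 of 8 rose, where 6.56% of all genes did. The 5 sinus venosus genes had means of 7.35 to 7.42 in the Nkx2-5+/- Brg1+/- arrays and 6.80 to 7.47 in the Nkx2-5+/- arrays, against 7.25 to 7.84 in wild type, and of these the transcription factor gene Shox2 fell by 0.80 in Nkx2-5+/- hearts (limma adjusted p = 0.0180) while Shox2 and the calcium sensor gene Vsnl1 were called in the interaction at 1.31 (limma adjusted p = 0.0203) and 1.16 (limma adjusted p = 0.0189). Those shares were 20% lower, against 5.16% of all genes, and 40% above 0 in the interaction, against 2.23%. Without both arrays 2 of the 5 fell (15.2% of all genes) and 3 were called in the interaction (10.8% of all genes). Without Nkx2-5+/- replicate 2, 0 were called in either. The 8 endothelium genes had 0 called in any comparison, with r = 0.51 to the member mean. The part of these tissues in the epicardial differences was not tested beyond the liver covariate. With that covariate 4 members were called lower in Nkx2-5+/- hearts, where 1941 of all genes were called in either direction. In the interaction 4 members were called above 0, and the count over all genes for that setting is not given here.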

How the data were processed

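The authors deposited log2 signals per probe set, for which the submitters' processing notes name RMA and Affymetrix Power Tools. Their versions are not given in the sources used here. RMA forces nearly the same distribution onto every array, so a change shared by most genes would not show. A single gene symbol was found for 21780 of 28815 probe sets. Those with several (1605) were left out, and 5430 are unnamed here. Each of 19935 genes was given its probe set with the highest mean. No filter on low values was applied, so all 10 members were tested.

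Limma 3.58.1 in R 4.3.3 fitted 1 mean per group over all 27 arrays (21 residual degrees of freedom), and 9 comparisons were tested. A gene was called at a Benjamini-Hochberg adjusted p under 0.05 over all genes of a comparison. The number of arrays limits the precision. The fit was tested on simulated data. Members, lists, motifs and tests were chosen with earlier results of these data known. All 10 members were named, with up to 4 genes of each other list by smallest p and the 10 genes most correlated with the member mean. The alternatives were other scalings, filters, variance priors, array weights, covariates and sets of arrays. Comparisons with wild type share its 6 arrays.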

Additional observations from a re-analysis of the deposited data

Results flagged for a closer look

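A single array stood far from the rest of its group in 3 of the 40 gene and group pairs tested, where chance gives about 1 in 20. Wt1 was 8.267 in Nkx2-5+/- replicate 2, against 8.727 to 8.766 in the other Nkx2-5+/- arrays. Tcf21 was 9.697 in Tbx5+/- replicate 3, against 9.358 to 9.421 in the rest of that group, and Tbx18 was 9.753 in the same array, against 9.128 to 9.282.

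By the interaction term in limma, the effect of Brg1 loss passed as different between hearts with and without an Nkx2-5 deletion for 4 members. Of all genes, 2.23% were called above 0 and 2.72% below. The count of members was 0 without Nkx2-5+/- replicate 2 and 0 with the erythroid mean as a covariate. The difference was 0.84 for Tcf21 (adjusted p = 0.0166), 1.0045 for Bnc1 (adjusted p = 0.0166), 0.79 for Upk3b (adjusted p = 0.0209) and 0.96 for Sema3d (adjusted p = 0.0189).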

How the results depend on the processing

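In the 5 comparisons of Brg1 or Tbx5 loss without an Nkx2-5 deletion, 0 members were called by limma under any alternative. For Nkx2-5+/- against wild type the count of 4 became 0 with the erythroid mean or the myocardium mean as a covariate, 0 without Nkx2-5+/- replicates 2 and 3, and 0 with the compared groups alone, and ran from 0 to 5 with single arrays left out. For Nkx2-5+/- Brg1+/- against wild type 0 became 3 with array weights. For Nkx2-5+/- Brg1+/- against Nkx2-5+/- the count of 0 became 3 with quantile normalization, 4 without the genes of lowest mean, 3 with a trended and robust prior, 8 with array weights, 4 with the liver covariate, 8 without both arrays whose Smarca4 goes against the label and 1 without Nkx2-5+/- replicates 2 and 3, and ran from 0 to 8 with single arrays left out. For the Nkx2-5 by Brg1 interaction the count of 4 became 9 with array weights, 7 without both such arrays, 0 with the erythroid or the myocardium covariate and 0 with the compared groups alone, and ran from 0 to 7 with single arrays left out. The myocardium covariate and the removal of Nkx2-5+/- replicates 2 and 3 together were chosen after seeing the data, as were the counts of other lists, overlaps and group order with arrays left out. The cause of these changes was not tested, beyond the fewer arrays where arrays were left out. The count over all genes also moved widely between settings, as given below for some of them. These member counts are therefore not results about the members alone. Without Nkx2-5+/- replicates 2 and 3, 2818 of all genes were called in Nkx2-5+/- against wild type, beside 0 members.

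With the replicate number as a block, 4 members passed in Nkx2-5+/- Brg1+/- against Nkx2-5+/-, 3 in Nkx2-5+/- against wild type (1120 of all genes) and 4 in the interaction. For the first and the last of these the count over all genes is not given here, so they are not results about the members alone. Among same-numbered arrays 18 of 55 pairs correlated over 0.1 (r from -0.45 to 0.41), and in 0 of 15 pairs of groups did all. Arrays with different numbers were not correlated for comparison, so whether the numbers pair the arrays cannot be told.

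Over all genes, the 1572 calls in Nkx2-5+/- against wild type became 4346 without both arrays whose Smarca4 goes against the label, 66 without Nkx2-5+/- replicate 2, 224 without replicate 4, 4 with the compared groups alone and 3 with the erythroid covariate. The 987 interaction calls became 3258, 14, 560, 25 and 0 under the same changes. The 8 calls in Nkx2-5+/- Brg1+/- against Nkx2-5+/- became 2363 without both arrays and 3680 with array weights, and the 7 in Nkx2-5+/- Brg1+/- against wild type became 1156 with array weights.

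The signs of 44 gene values were followed, and these were partly picked by their result. They held every member in the comparisons that involve an Nkx2-5 deletion. For Brg1+/- against wild type they held only Tcf21, Bnc1, Msln and Sema3d, the members with an unadjusted p under 0.05. The remaining Brg1+/- values and all gene values of the Tbx5 comparisons were left out, so the tally does not cover them. Of the 44, 40 kept their sign under every alternative, and the other 4 did not pass the threshold in Nkx2-5+/- against wild type. Wt1 turned to 0.018 and Lrrn4 to 0.037 with the erythroid covariate. Lrrn4 turned to 0.015 and Aldh1a2 to 0.108 without Nkx2-5+/- replicates 2 and 3. With single arrays left out, Upk1b ran from -0.29 to 0.0185 and Lrrn4 from -0.19 to 1e-04. Labels name no batch.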
